A study of Mus musculus with 12 samples.

Results

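The insulin-like growth factor (IGF) genes examined here are the ligands Igf1 and Igf2, the receptors Igf1r and Igf2r, and the binding proteins Igfbp2 to Igfbp7, 10 of the 23420 genes in the count table of mouse inguinal white adipose tissue (iWAT). They were picked by gene symbol, and partly because Igfbp2 was lower in cold, so the cold values below are a description without p-values. Where a cold value of these 10 genes is said to pass an adjusted limit, this describes the fit and is not read as a test. All 10 passed the filter on low counts, which 15306 genes passed. The tissue came from 10-week-old male C57BL/6 mice, 3 in each of 4 groups. Mice labelled WT carried HIF2α loxP/loxP alleles with no Cre in the label, and mice labelled HIF2α AKO carried the same alleles with Adipoq-Cre, a Cre driven by the adiponectin promoter that acts in adipocytes, while other cells of the tissue keep the gene. All groups thus share the floxed alleles. Thermoneutral (TN) mice spent 1 week at 30 °C, and cold mice spent 3 days at 4 to 6 °C, so the length of housing differed together with the temperature. Gene counts per library were between 22368316 and 35204631.

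IGF1 and IGF2 are secreted hormones that act through the tyrosine kinase receptor IGF1R, whereas IGF2R carries IGF2 to lysosomes for breakdown. The binding proteins hold the ligands in blood and tissue fluid, which limits or prolongs their access to receptors, and proteases release the ligands by cutting the binding proteins. In adipose tissue, IGF signaling supports the growth of precursor cells and the formation of adipocytes.

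The study reported lower Hif2a mRNA by RT-qPCR in adipose tissue of its HIF2α AKO mice. In the counts per gene used here, which do not single out exons, Epas1, which encodes HIF2α, was not lower in libraries labelled AKO. Its level was 360.2 ± 76.8 CPM (counts scaled to a common library size, SD, n = 3) in TN WT, 348 ± 53.8 in TN AKO, 627 ± 101 in cold WT and 826 ± 139 in cold AKO, so genotypes are given as labelled throughout. Every adipocyte marker was found in every group, and the summed thermogenic markers lay between 28.4 and 90.6 CPM at TN and between 3350.3 and 8582 CPM in cold. TN AKO mouse 2 and cold AKO mouse 1 had 1593 and 1303 CPM of skeletal muscle markers against at most 111 CPM elsewhere, and TN WT mouse 3 had 200.05 CPM of epithelial markers against at most 10.3 CPM. Without these 3 libraries, the log2 fold change from TN to cold was -1.50 in WT and -1.42 in AKO for Igfbp2, 0.51 in WT for Igfbp4 and 0.85 in AKO for Igf2, and the last 2 no longer passed the adjusted limit of 0.05.

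Levels of different genes were compared per length, as RPKM, which is CPM divided by exon length in kilobases, with lengths of the GENCODE M21 annotation. Averaged over the 12 libraries, the order was Igfbp7 at 260.9, Igfbp4 at 152, Igfbp5 at 109, Igfbp6 at 73.2, Igfbp3 at 27.6, Igf1 at 20.6, Igf2r at 14.1, Igf1r at 2.07, Igf2 at 1.29 and Igfbp2 at 0.961 RPKM. The library ranges of neighbours in this order overlapped, except between Igfbp6 and Igfbp3, between Igf1 and Igf2r, and between Igf2r and Igf1r. Igfbp2 and Igf2 traded places, with Igfbp2 the lowest of the 10 in cold and Igf2 the lowest at TN. Igfbp1, the remaining classical binding protein, had 0 counts in all 12 libraries. A single library with 0 counts would allow up to 3, and the 12 together allow fewer per library.

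**Figure D1:**
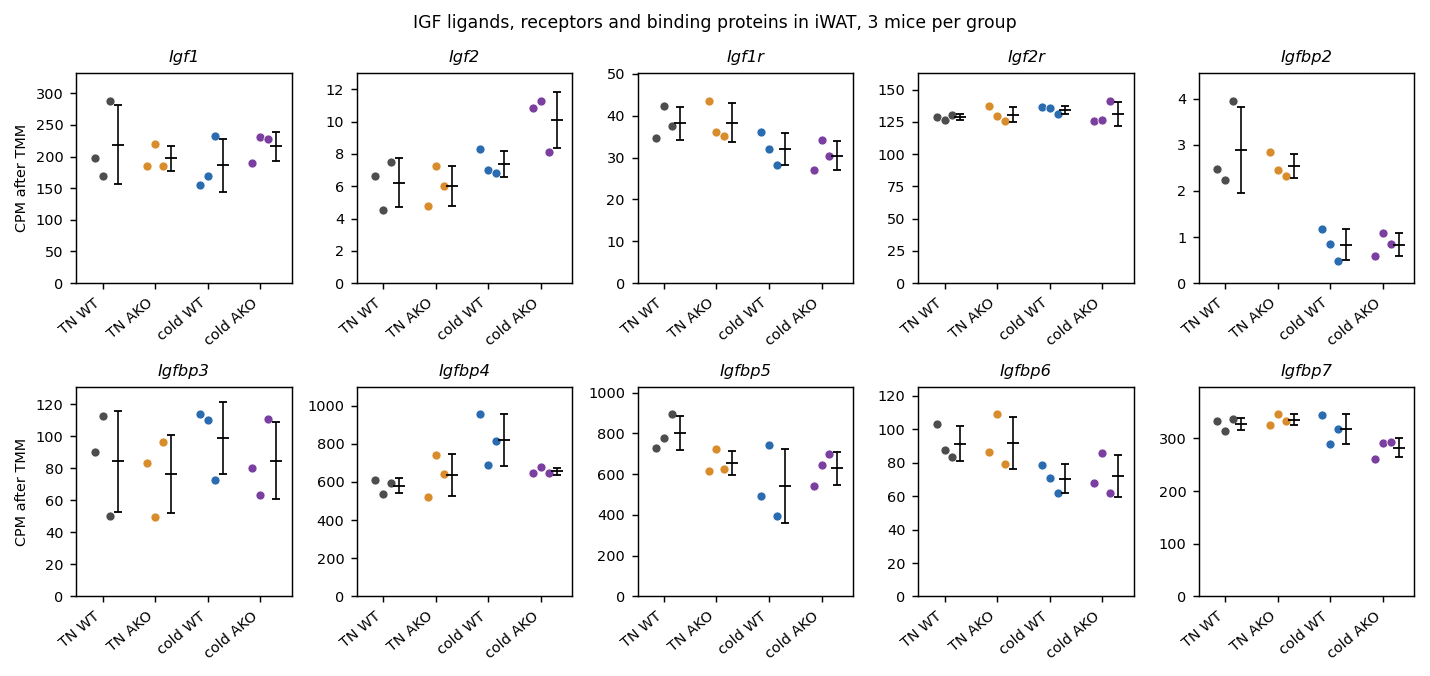
Level of each of the 10 IGF genes in CPM after TMM scaling (y axis, from 0) in the 4 groups (x axis). Points are mice, and the black mark and bar to their right are the mean and SD of 3 mice. Igfbp2 lies between 2.23 and 3.96 CPM at TN and between 0.483 and 1.16 CPM in cold, while Igf2r stays between 125 and 141 CPM.

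Upon cold, Igfbp2 was lower in every mouse of both genotypes. Igfbp2, a binding protein with an affinity for both ligands, lies at chr1:72824503-72852474 (GRCm38, plus strand), tail to tail with Igfbp5. TN WT mice had 2.47, 2.23 and 3.96 CPM of Igfbp2, TN AKO mice 2.84, 2.45 and 2.33, cold WT mice 1.16, 0.854 and 0.483, and cold AKO mice 0.581, 1.09 and 0.841. The lowest TN mouse was above the highest cold mouse. The log2 fold change from TN to cold was -1.79 (SE 0.35) in WT and -1.59 (SE 0.35) in AKO, which is 0.289 and 0.332 of the TN level. Over 20 alternative settings these values ran from -2.10 to -1.43 in WT, while in AKO they ran from -1.82 to -1.39, which describes the values that helped to choose the gene. These levels rest on 65 to 116 counts per library at TN and 12 to 27 in cold, and 12 counts have an exact 95% Poisson interval of 6.20 to 20.96 that covers counting error only.

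The cold response of Igfbp2 did not differ detectably between genotypes. The interaction of genotype and temperature was 0.20 (SE 0.49, edgeR adjusted p = 1.00), with a 95% interval from -0.87 to 1.28. Between libraries labelled AKO and WT, Igfbp2 differed by -0.18 (SE 0.32) at TN and by 0.02 (SE 0.37) in cold on the log2 scale, and the groups overlapped at both temperatures (exact permutation p = 0.8 and p = 1, two-sided). The TN difference rested on TN WT mouse 3, the highest of all, and was 0.11 without it.

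Summed markers of other cell types moved in both directions upon cold. The summed level of 10 fibroblast and adipose progenitor markers was between 5861 and 7881 CPM in the TN libraries and between 3566 and 4999.6 CPM in the cold libraries, and none of the 10 was at 0 in any group. The 8 lymphocyte markers summed to between 1449 and 2322 CPM at TN and between 809 and 1455 CPM in cold, again with none at 0, and these ranges overlapped slightly. The 8 macrophage markers in the table summed to between 1572 and 2741 CPM at TN and between 1322 and 2537 CPM in cold. In the other direction, 6 mural markers went from between 378 and 599.8 CPM at TN to between 538 and 649.8 CPM in cold, and 7 endothelial markers from between 860.4 and 1074 CPM to between 1028 and 1163 CPM, with overlap in both. In whole tissue, fewer cells of a type and less RNA per cell cannot be told apart. The part of these cell types in the Igfbp2 values was not tested.

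**Figure D2:**
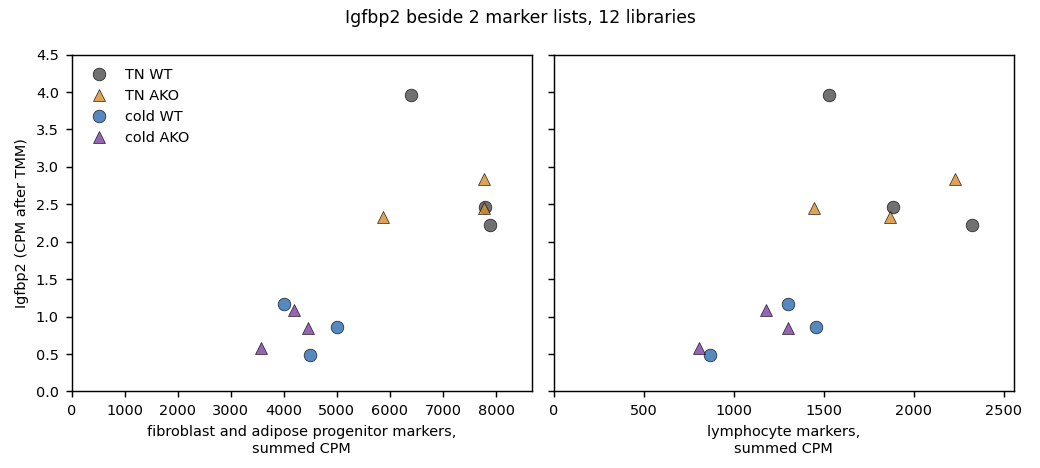
Igfbp2 in CPM after TMM scaling (y axis) against the summed CPM of fibroblast and adipose progenitor markers (left x axis) and of lymphocyte markers (right x axis), all axes from 0. Each point is 1 of the 12 libraries, with circles for WT and triangles for AKO; the cold libraries sit at lower Igfbp2, and at fibroblast and progenitor sums of at most 4999.6 CPM.

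Among 10279 genes with a mean of at least 10 CPM outside the 10, Dsc2 had the smallest difference from Igfbp2 over the 12 libraries. The measure was the root mean square difference of log2 CPM after each gene was centred on its own mean. The measure covers both temperatures, so it includes the fall in cold that helped to choose Igfbp2 and does not single out variation between mice. It was 0.34 for Dsc2, 0.44 for C4b, 0.47 for Trim30b, 0.48 for Cr2 and 0.48 for Nnt, and the root mean square of Igfbp2 itself was 0.89. Dsc2, a desmosomal cadherin, had 17.5 ± 1.03 CPM (SD, n = 3) in TN WT, 16.1 ± 2.00 in TN AKO, 6.995 ± 1.78 in cold WT and 6.97 ± 2.21 in cold AKO.

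The stretches upstream of Igfbp2 and Igfbp4 are shown because these genes had the lowest and the highest log2 fold change of the 10 upon cold in WT. Each runs 5′ to 3′ over the 250 bases before the first RefSeq start (GRCm38.p6), at chr1:72824230-72824479 and chr11:99040994-99041243, both on the plus strand. Capitals mark ACGTG or GCGTG on either strand, the core letters known for HIF binding, where the CACGTG in Igfbp2 is a match on both strands that overlap.
Igfbp2: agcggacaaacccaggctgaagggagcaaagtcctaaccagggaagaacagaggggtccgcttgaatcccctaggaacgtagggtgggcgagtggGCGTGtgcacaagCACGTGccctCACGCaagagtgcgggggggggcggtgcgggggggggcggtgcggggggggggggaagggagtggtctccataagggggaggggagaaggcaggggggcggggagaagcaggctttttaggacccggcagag
Igfbp4: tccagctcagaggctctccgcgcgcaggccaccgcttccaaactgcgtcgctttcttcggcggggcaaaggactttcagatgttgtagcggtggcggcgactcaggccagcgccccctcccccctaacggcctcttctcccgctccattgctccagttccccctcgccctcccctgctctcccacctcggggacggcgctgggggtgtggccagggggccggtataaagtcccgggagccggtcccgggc
Igfbp2 held 4 matches and Igfbp4 held 0 in this window, and a second Igfbp2 window at chr1:72825137-72825386 held 0. Igf2r held the most of the 10, 6, with log2 fold changes upon cold of 0.06 in WT and 0.0039 in AKO. In Igf2r, CACGTG at -48 and at -7 from the start was likewise counted once on each strand, so matches outnumber separate places. Igf1r held 3, Igfbp3 and Igfbp7 held 2 each, Igf1 and 1 window of Igf2 held 1 each, and Igfbp5 and Igfbp6 held 0. A relation of matches to the cold values was not tested. Of the 14 windows of the 10 genes 7 held a match, and 38.6% of the 32851 RefSeq windows of the same length did. These matches describe letters and not binding.

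Igfbp4 was higher in cold in the WT libraries. This gene, which encodes an inhibitory binding protein that the protease PAPP-A cuts, lies at chr11:99041244-99054392 (plus strand). TN WT mice had 611, 536 and 593 CPM of Igfbp4, TN AKO mice 522, 742 and 641, cold WT mice 956, 688 and 812, and cold AKO mice 647, 678 and 644. The cold WT mice were all above the TN WT mice, whereas the cold AKO mice lay inside the TN AKO range. The log2 fold change from TN to cold was 0.50 (SE 0.16) in WT and 0.05 (SE 0.16) in AKO, the latter with the opposite sign under upper quartile scaling. The WT value ran from 0.36 to 0.58 over the 20 alternative settings. It was past the adjusted limit under 6 of them, which is a description and not a test.

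In cold, all AKO libraries had less Igfbp4 than all WT libraries, 656 ± 18.7 against 819 ± 134 CPM (SD, n = 3). The log2 difference was -0.32 (SE 0.16, edgeR p = 0.0663, adjusted p = 1.00), the exact permutation p of 0.1 is the smallest that 3 against 3 mice allow, and 3.73% of all tested genes were lower in all AKO libraries. The interaction was -0.45 (SE 0.22, edgeR adjusted p = 1.00), with a 95% interval from -0.94 to 0.04. Both values use the same cold WT mice. Summed thermogenic markers were between 3350.3 and 4864 CPM in cold WT and between 5622 and 8582 CPM in cold AKO, and their part in the Igfbp4 values was not tested.

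Igfbp5 was lower on average in cold WT mice than in TN WT mice, although the groups overlapped. This protein, which binds to extracellular matrix and is abundant in connective tissue, is encoded at chr1:72857932-72874884 (minus strand). TN WT mice had 731, 780.0 and 896 CPM of Igfbp5, TN AKO mice 616, 722 and 627, cold WT mice 493, 742 and 393, and cold AKO mice 541, 646 and 698. At TN every AKO mouse was below every WT mouse, and in cold the WT mice spread over a wide range, with mouse 2 near the TN level. The log2 fold change from TN to cold was -0.56 (SE 0.21) in WT and -0.06 (SE 0.21) in AKO. Neither passed the limit, and the WT value was -0.89 and past it without cold WT mouse 2. Of the 20 alternative settings, the WT value was past the limit in 3 and the AKO value in 0. The TN difference between AKO and WT was -0.29 (SE 0.21, edgeR p = 0.190, exact permutation p = 0.1), where 4% of all tested genes were lower in all AKO libraries. The interaction was 0.50 (SE 0.30, edgeR adjusted p = 1.00), with a 95% interval from -0.15 to 1.16.

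Igfbp6 and Igfbp7 did not pass the limit upon cold in the fit of all 12 libraries. Of the 20 alternative settings, Igfbp6 passed it in 2 in WT and 0 in AKO, and Igfbp7 in 0 in WT and 3 in AKO. Igfbp6, which prefers IGF2 and lies at chr15:102144362-102149511 (plus strand), had 91.5 ± 10.5 CPM in TN WT, 91.6 ± 15.6 in TN AKO, 70.4 ± 8.55 in cold WT and 71.9 ± 12.6 in cold AKO (SD, n = 3). Its log2 fold change from TN to cold was -0.38 (SE 0.16) in WT and -0.35 (SE 0.16) in AKO, and the groups overlapped only in AKO. Igfbp7, a weak IGF binder of the vessel wall at chr5:77349240-77408041 (minus strand), had 328 ± 11.6, 335 ± 10.3, 317 ± 27.96 and 282 ± 17.7 CPM in the same order of groups. All cold AKO mice were below all TN AKO mice in Igfbp7, with log2 fold changes of -0.05 (SE 0.10) in WT and -0.25 (SE 0.10) in AKO. The annotation places 7.03% of Igfbp7 exon bases on Polr2b in the opposite direction, and the strand setting of the counting is not given in the sources used here.

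Igfbp3, the main carrier of IGF1 in blood, at chr11:7206086-7213923 (minus strand), had the widest spread of the 10 within groups. TN WT mice had 90.3, 113 and 50.5 CPM of Igfbp3, TN AKO mice 83.5, 49.7 and 96.8, cold WT mice 114, 110.1 and 72.9, and cold AKO mice 80.2, 63.4 and 111. The lowest library of each group was below every other group's highest, so all groups overlapped. The within-group SD was 0.48 on the log2 scale, and 13.7% of tested genes had a larger one. The log2 fold changes from TN to cold were 0.23 (SE 0.33) in WT and 0.15 (SE 0.33) in AKO.

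Summed over Igfbp2 to Igfbp7, binding protein mRNA was 647 ± 16.9 RPKM in TN WT, 638 ± 47.5 in TN AKO, 634 ± 52.0 in cold WT and 579 ± 33.6 in cold AKO (SD, n = 3), without a test because the genes were chosen together. The Igfbp4 share was 20.3% ± 0.854 in TN WT and 29.2% ± 3.47 in cold WT, against 22.4% ± 2.34 in TN AKO and 25.7% ± 1.33 in cold AKO. The Igfbp5 share was 20.7% ± 2.15 in TN WT and 14.3% ± 4.95 in cold WT, against 17.1% ± 0.411 and 18.0% ± 1.42 in AKO. Igfbp7 held between 38.7% and 45.2% of the sum in every library. Igfbp2 made up 0.241% of the sum in TN WT and 0.0701% in cold WT.

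**Figure D3:**
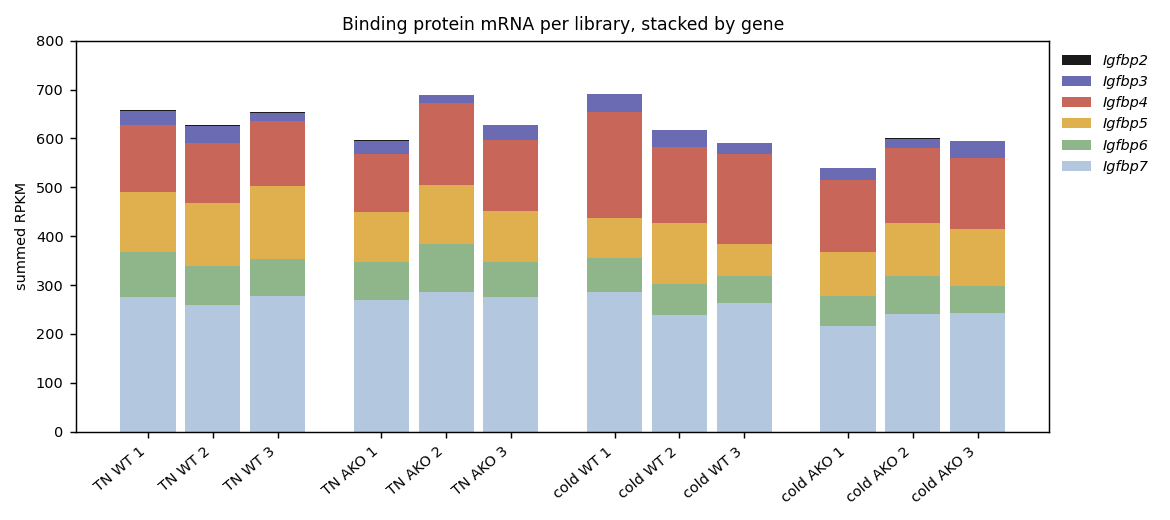
Binding protein mRNA in each of the 12 libraries as stacked bars of RPKM (y axis, from 0), with a color for each of Igfbp2 to Igfbp7 and libraries in their groups along the x axis. The totals lie between 539.9 and 692 RPKM, Igfbp7 is the largest block everywhere, and the Igfbp2 block is too thin to see in most bars.

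Of the ligands, Igf1 is the main mediator of growth hormone and is made in adipose tissue as well as in liver. It lies at chr10:87858265-87937042 (plus strand). TN WT mice had 198, 170.0 and 288 CPM of Igf1, TN AKO mice 186, 220.4 and 184, cold WT mice 155, 169.9 and 233, and cold AKO mice 190.3, 231 and 228. All groups overlapped. The log2 fold changes from TN to cold were -0.23 (SE 0.20) in WT and 0.13 (SE 0.20) in AKO, and AKO differed from WT by 0.22 (SE 0.20, exact permutation p = 0.4) in cold and by -0.15 (SE 0.20, exact permutation p = 0.8) at TN.

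Igf2, the imprinted fetal growth factor, was higher in cold in the libraries labelled AKO. It lies at chr7:142650766-142666816 (minus strand), where the annotation gives 62.8% of its exon bases also to Gm49394 on the same strand, which has no row in the count table. TN WT mice had 6.62, 4.52 and 7.47 CPM of Igf2, TN AKO mice 4.75, 7.22 and 6.01, cold WT mice 8.28, 7.01 and 6.80, and cold AKO mice 10.8, 11.3 and 8.09. All cold AKO mice were above all TN AKO mice, while cold WT and TN WT overlapped. The log2 fold change from TN to cold was 0.75 (SE 0.22) in AKO and 0.25 (SE 0.22) in WT. Over the 20 alternative settings the AKO value ran from 0.61 to 0.90. It was past the adjusted limit under 14 of them, again as a description and not a test. In cold, AKO differed from WT by 0.45 (SE 0.22, edgeR p = 0.0630, exact permutation p = 0.2), and the interaction was 0.50 (SE 0.31, 95% interval -0.18 to 1.18). Igf1 remained the main ligand per length, with Igf2 at 4.72% ± 0.650 of the summed ligand RPKM in TN WT and 7.53% ± 1.61 in cold AKO.

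Neither receptor passed the limit upon cold, apart from Igf1r in AKO under 1 of the 20 alternative settings. Igf2r, which clears IGF2, at chr17:12682406-12769664 (minus strand) had 128 ± 2.29 CPM in TN WT, 131 ± 5.93 in TN AKO, 134 ± 2.98 in cold WT and 131 ± 9.05 in cold AKO (SD, n = 3). The highest library was 1.13-fold the lowest, and 97.8% of tested genes had a larger within-group SD. Its log2 fold changes from TN to cold were 0.06 (SE 0.08) in WT and 0.0039 (SE 0.078) in AKO, both with the opposite sign under upper quartile scaling. Over both temperatures, AKO differed from WT in Igf2r by -0.0048 (SE 0.055), with a 95% interval of 0.917- to 1.08-fold. Igf1r at chr7:67952827-68233668 (plus strand) had 38.2 ± 3.89, 38.3 ± 4.65, 32.1 ± 3.85 and 30.5 ± 3.54 CPM in the same order of groups. All cold AKO mice were below all TN AKO mice in Igf1r, and the log2 fold changes from TN to cold were -0.25 (SE 0.13) in WT and -0.33 (SE 0.13) in AKO.

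**Figure D4:**
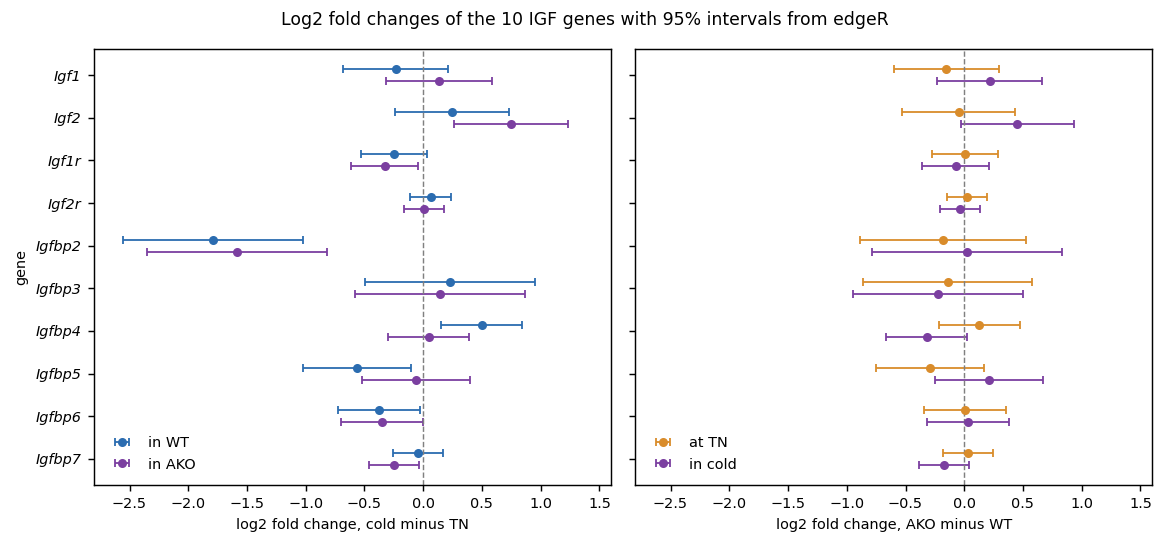
Log2 fold change (x axis) of each of the 10 IGF genes (y axis) with its 95% interval from edgeR. The left panel gives cold minus TN in WT and in AKO, and the right panel AKO minus WT at TN and in cold. Igfbp2 stands apart on the left at -1.79 and -1.59, and every interval on the right includes 0.

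Counted together, 2 of the 10 genes passed the adjusted limit upon cold in WT, Igfbp4 upward and Igfbp2 downward, beside 21.3% of all tested genes (15.6% upward, 5.68% downward). In AKO 2 passed as well, Igf2 upward and Igfbp2 downward, beside 27% of all tested genes (15.6% upward, 11.5% downward). In WT every cold mouse was above every TN mouse for 2 of the 10 and below for 2, beside 22.7% and 19.3% of all tested genes, or 42% together. In AKO this was 1 above and 3 below, beside 24.9% and 25.6%, or 50.5% together. The cold values helped to choose the genes, so nothing is read from these counts. The median log2 fold change of the 10 was -0.14 in WT and -0.03 in AKO, beside -0.03 and -0.05 over all tested genes. Upper quartile scaling moved the median of all genes to -0.17 in WT and -0.14 in AKO, and relative to these medians Igfbp2 stood at -1.75 and -1.54. Of all calls upon cold, 73.3% were upward in WT and 57.5% in AKO, and 42.6% and 42.4% under that scaling.

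The genotype comparisons, which were not used to choose the genes, passed the limit for 0 of the 10. This held for libraries labelled AKO against WT in cold, at TN and over both temperatures, beside 0.00653% of all tested genes called in each, and for the interaction, beside 0%. In edgeR 0 of the 10 had an unadjusted p under 0.05 in any of the 4 comparisons, beside 2.95% of all tested genes in cold, 2.91% at TN, 3.64% over both temperatures and 2.14% in the interaction, and DESeq2 and limma voom passed 0 as well. Besides Igfbp4 in cold and Igfbp5 at TN, all genes overlapped between the genotypes, with 0 of the 10 higher in all AKO libraries beside 3.8% of all tested genes in cold and 3.69% at TN. In either direction, 7.53% and 7.69% of all tested genes did not overlap. Over both temperatures the log2 differences ran from -0.18 (SE 0.23) for Igfbp3 to 0.20 (SE 0.16) for Igf2, and the Igf2 interval ran from 0.908- to 1.46-fold. At the thresholds that the study applied in cold, an unadjusted p under 0.15 with an absolute log2 fold change above 0.2, Igf2 and Igfbp4 passed, beside 8.98% of all tested genes.

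A list of 45 other genes of the pathway, of which 41 could be tested, had a median log2 fold change upon cold of -0.03 in WT and 0.02 in AKO, beside the medians over all genes given above. In WT 5 rose and 1 fell, and in AKO 5 rose and 4 fell (edgeR, adjusted over all tested genes), against 15.6% rising and 5.68% falling among all tested genes in WT and 15.6% and 11.5% in AKO. The shares of the list were below these in each direction. Furin, a protease that matures the receptors, rose with log2 fold changes of 0.69 (SE 0.16, adjusted p = 0.0136) in WT and 0.68 (SE 0.16, adjusted p = 0.0121) in AKO. Stat5a, a transcription factor downstream of the growth hormone receptor, rose by 0.71 (SE 0.15, adjusted p = 0.00811) and 0.60 (SE 0.15, adjusted p = 0.0146), and Akt1, a kinase downstream of the receptors, by 0.46 (SE 0.10, adjusted p = 0.00956) and 0.47 (SE 0.10, adjusted p = 0.00722).

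Insr, the insulin receptor and closest relative of Igf1r, rose in WT by 0.62 (SE 0.18, adjusted p = 0.0304) and had 0.49 (SE 0.18, adjusted p = 0.0594) in AKO. Akt2, the kinase isoform most tied to insulin action, had 0.59 (SE 0.20, adjusted p = 0.0616) in WT and rose by 0.63 (SE 0.20, adjusted p = 0.0437) in AKO. Cish, a feedback inhibitor of growth hormone signaling, rose in AKO, with 73.3 ± 27.1 CPM in cold AKO against 20.98 ± 9.51 in TN AKO (SD, n = 3), and its interaction was 2.19 (SE 0.73, edgeR adjusted p = 1.00). In AKO the transcription factor Foxo3 fell by 0.74 (SE 0.17, adjusted p = 0.0106), the kinase Jak2 by 0.42 (SE 0.11, adjusted p = 0.0201) and the adaptor Grb2 by 0.39 (SE 0.12, adjusted p = 0.0350). Sos1 rose in WT and Pappa2, a protease that cuts binding proteins, fell in both genotypes, and these were named after their values were seen. In the genotype and interaction comparisons 0 of the 41 passed in edgeR, where 1 in cold, 2 at TN, 0 over both temperatures and 3 in the interaction had an unadjusted p under 0.05. Among all tested genes the shares were 2.95% in cold, 2.91% at TN, 3.64% over both temperatures and 2.14% in the interaction.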

How the data were processed

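RNA-seq of iWAT was available for 12 libraries. The authors trimmed reads with Trim Galore 0.4.4, aligned them to GRCm38/mm10 with STAR 2.6.1d and counted them with HTSeq 0.13.5. The deposited values are raw read counts per gene without normalization, and in each of the 12 libraries the 2 deposited tables were identical. The annotation, strand setting and read length are not given in the sources used here. Tallies of reads outside genes, 21.9 to 27.0% of the reads listed, were left out.

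Tests used edgeR 4.0.16 in R 4.3.3, and alternatives used DESeq2 1.42.0 and limma 3.58.1. The filterByExpr function (minimum count 10, minimum total 15) removed low genes. After TMM scaling, the 4 groups entered a quasi-likelihood fit as levels of 1 factor, and p-values were adjusted by Benjamini-Hochberg over 15306 genes with a limit of 0.05. CPM values use TMM library sizes, and log2 CPM a prior count of 2. RPKM was computed from the counts with merged exon lengths of GENCODE M21 (GRCm38), in which 93.0% of gene symbols were found. Mice were compared by two-sided exact permutation tests on log2 CPM. The fit was checked on counts drawn with known fold changes.

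The 10 genes, the pathway list and the marker lists were chosen with earlier results of these data known. All 10 are named. Pathway genes are named when among the 4 largest rises or falls upon cold with an adjusted p under 0.05 and a mean count of at least 50, and the 5 genes most like Igfbp2 by the measure given. Libraries were assigned by their labels, which give 1 mouse tissue each without naming a batch, so p-values measure the spread between these samples. Alternatives were other scalings, no filter, a block for the replicate number, DESeq2, limma voom, fits on only the groups compared, each library left out, and, chosen after seeing the data, 3 libraries left out together. Igfbp2 had between 12 and 116 counts per library, and the Poisson interval given for 12 counts covers counting error only. Intervals of log2 fold changes come from the edgeR fit and include the spread between these samples. Protein sequences were not used here.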

Additional observations from a re-analysis of the deposited data

How the results depend on the processing

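Upon cold, the number of the 10 genes past the limit in WT was 1 rather than 2 without a filter, with fits on only the groups compared, with the 3 libraries left out and with the replicate block, and 1 to 3 with each library left out. Of all genes in WT, 1969 passed upward and 1015 downward of 19476 without a filter, and 1468 and 284 of 14975 with only the groups compared. With the 3 libraries left out these were 2552 and 1099 of 15364, and with the replicate block 2018 and 543 of 15306. In AKO the number of the 10 genes was 4 under upper quartile scaling (Igf1r, Igf2, Igfbp2 and Igfbp7), 1 with the 3 libraries left out and with the replicate block, and 1 to 2 with each library left out. Under upper quartile scaling 2070 of all 15306 tested genes passed upward and 2815 downward in AKO, with a median of -0.14. With the 3 libraries left out these were 1466 and 368 of 15364, and with the replicate block 2090 and 1223 of 15306. The number of all genes past the limit also changed with each library left out. No pairing by replicate number was seen, as the deviations of only 5 of 18 same-numbered pairs correlated above 0.1 (range -0.43 to 0.39). With 3 libraries per group this cannot exclude a pairing. Igfbp4 in WT lost its call with each of the TN WT mice, cold WT mice 1 and 3, TN AKO mouse 3 or any cold AKO mouse left out (0.37 to 0.54), and Igf2 in AKO with TN AKO mice 1 and 3 or cold AKO mice 1 and 2 left out (0.61 to 0.75). Upper quartile scaling also ended the call of Igfbp4 in WT (0.36), although the number of the 10 past the limit in WT did not fall there. Pathway calls upon cold in WT were 11 with limma voom, 10 with DESeq2, 1 with only the groups compared and 2 to 10 with each library left out. The calls over all genes changed with the setting too. In WT limma voom passed 3077 genes upward and 1607 downward of 15306, and DESeq2 2887 and 1704 of 19353. In AKO the pathway calls were 15 with limma voom, 5 with the 3 libraries left out and 3 to 11 with each library left out. Over all genes in AKO, limma voom passed 3214 upward and 2926 downward of 15306. Nothing is read from the change in pathway calls. The genotype count in cold was 2 when the edgeR values were put to the thresholds of the study. The summed binding protein levels and the order per length stayed within their spread under the alternatives run.

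Small genotype differences changed sign. At TN, Igf1r became -0.041 with upper quartile scaling, -0.018 without a filter and -0.010 with only the groups compared, Igf2r became -0.019 and -0.0068 with upper quartile and limma voom, and Igfbp7 -0.012 with upper quartile. Igfbp6 at TN became -0.00036 with DESeq2 size factors, -0.045 with upper quartile, -0.022 without a filter, -0.0068 with the replicate block, -0.22 with limma voom, -0.015 with only the groups compared and -0.20 with the 3 libraries left out. The same omission gave 0.0085 for Igf1 and 0.14 for Igfbp2 at TN, 0.0041 for Igf1r in cold and 0.18 for Igfbp2 over both temperatures, and limma voom gave -0.041 for Igfbp2 in cold. With each library left out, the TN values ran from -0.30 to 0.10 for Igf1, from -0.23 to 0.10 for Igf2, from -0.10 to 0.084 for Igf1r, from -0.011 to 0.054 for Igf2r, from -0.33 to 0.11 for Igfbp2, from -0.41 to 0.12 for Igfbp3 and from -0.14 to 0.10 for Igfbp6. In cold they ran from -0.16 to 0.015 for Igf1r, from -0.093 to 0.0042 for Igf2r, from -0.26 to 0.33 for Igfbp2 and from -0.12 to 0.13 for Igfbp6. For Igfbp2 the range was -0.22 to 0.076 over both temperatures and -0.090 to 0.51 for the interaction. The cause of these changes was not tested.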

Other observations

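Igf1 and Igfbp3 often lay at opposite ends within groups. In each of the 4 groups, the library with the most Igf1 was also the library with the least Igfbp3, namely TN WT mouse 3, TN AKO mouse 2, cold WT mouse 3 and cold AKO mouse 2. Igf1 in these libraries was 288, 220.4, 233 and 231 CPM, and Igfbp3 was 50.5, 49.7, 72.9 and 63.4 CPM. The reverse, the least Igf1 with the most Igfbp3, held in 3 of the 4 groups. Of the 45 pairs among the 10 genes this was the only pair with such an opposite layout in all 4 groups. Igf2r and Igfbp2 were the only pair whose lowest library was shared in all 4. With 3 libraries per group such layouts also arise from random order, and the number of pairs to expect was not computed, so nothing is read from them. TN WT mouse 3 and TN AKO mouse 2 are the libraries with 200.05 CPM of epithelial and 1593 CPM of skeletal muscle markers, and cold WT mouse 3 had the lowest limma voom weight of the 12, 0.340. Their part in the pattern was not tested. Both pairs were noticed after the values were seen and were not tested.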
